A study of Mus musculus with 20 samples.

Results

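The collagen genes of the mouse hippocampus were the members described here. A gene was taken as a member when its mouse symbol had the form Col, a number, a and a number, when it was protein coding, and when at least 10 reads were counted on it in at least 5 of the 20 libraries. Of 44 such genes in the annotation 43 met the rule, out of 39056 genes in the count table, and the gene left out was Col10a1, with at most 5 counts in any library. All 43 also passed the filter on low counts that was applied before testing, which kept 16107 genes.

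RNA of the left hippocampus was sequenced from 20 female C57BL/6 mice aged 12 to 13 months, 1 mRNA library per mouse, after perfusion with PBS. The 4 groups held 5 mice each and crossed 2 alleles. miR-34a was either intact (WT, miR34a+/+) or deleted in the whole body (KO, miR34a-/-), and mice either lacked the transgene (Non-Tg) or carried Tg-SwDI, human amyloid precursor protein with the Swedish, Dutch and Iowa mutations under the neuronal Thy1 promoter. Transcript of the transgene therefore comes from neurons, whereas miR-34a is missing from every cell type, and no group had a deletion restricted to the cells that make collagen. Each mouse carries its group name and the number its label gives, and the values of a group are listed in the order of those numbers (2, 3, 4, 6 and 7 in WT Non-Tg, 1, 2, 4, 7 and 8 in KO Non-Tg, 3, 4, 5, 6 and 7 in WT Tg-SwDI, and 1, 2, 3, 5 and 8 in KO Tg-SwDI). Levels are in CPM, counts relative to the total of the library after scaling by TMM factors, and with totals of 19549622 to 21066868 counts per library 1 CPM stood for about 20 reads.

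Collagens are trimers of chains that wind into a triple helix, and each gene encodes 1 chain. Fibrillar collagens build the tensile fibres of connective tissue, type IV collagens build the sheet of the basement membrane around capillaries, type VI forms beaded filaments beside it, FACIT collagens sit on the surface of fibrils, and transmembrane collagens are held in the cell membrane. In the brain these genes are expressed mainly by vascular cells, by fibroblasts of the meninges and perivascular spaces and by the choroid plexus, with a few made by neurons. A collagen level in a whole hippocampus can therefore move with the amount of such tissue in a dissection, and in these bulk libraries fewer cells of a type and less RNA per cell cannot be told apart.

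The transgene label held in every library: reads on Thy1, the gene that lent its promoter, amounted to 685 to 769 CPM without the transgene (10 mice) and to 1905 to 3318 CPM with it (10 mice). miR-34a itself was not analysed here. Markers of hippocampal neurons were present in each group, with 7 of 7 tested and a summed level between 6077 and 9144 CPM. The highest sum was that of KO Tg-SwDI 8 alone, and the next, KO Tg-SwDI 2, was at 7313 CPM. KO Tg-SwDI 8 also had the lowest TMM factor, 0.901, against 0.981 to 1.03 in the other libraries. Choroid plexus markers divided the libraries: Ttr, the transthyretin of its epithelium, was at 1691 to 3898 CPM in 11 libraries and at 29.8 to 277 CPM in 9, with none between. The 9 were all 5 KO Non-Tg mice, WT Non-Tg 3 and 6, WT Tg-SwDI 7 and KO Tg-SwDI 2, so this content was unevenly spread over the groups, and several collagens below are given beside it.

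Levels differed widely between the chains. Scaled to the length of all annotated exons, the mean over the 20 mice ran from 5.76 CPM per kb for Col4a2, the highest, to 0.0496 CPM per kb for Col6a6, the lowest, with a median of 0.498 CPM per kb. Behind Col4a2 came Col25a1 at 5.16, Col4a1 at 4.86, Col9a3 at 4.59 and Col6a1 at 3.43 CPM per kb, and 16 of the 43 were above 1 CPM per kb. For 9 members at least 1 library held fewer than 10 counts, which limits what could be seen for these. The median within-group SD was 0.40 on the log2 CPM scale over the 43 members and 0.14 over all 16107 genes tested. These gene sets were not matched for level, and the part of low counts in the difference was not tested. Within-group SDs above 1 on that scale belonged to Col8a1 (1.64), Col17a1 (1.17), Col6a4 (1.14) and Col4a3 (1.04), and at the other end stood Col4a1 (0.11), Col25a1 (0.12) and Col4a2 (0.14). Of the former, Col8a1, Col17a1 and Col4a3 ran beside Ttr, described below.

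**Figure D1:**
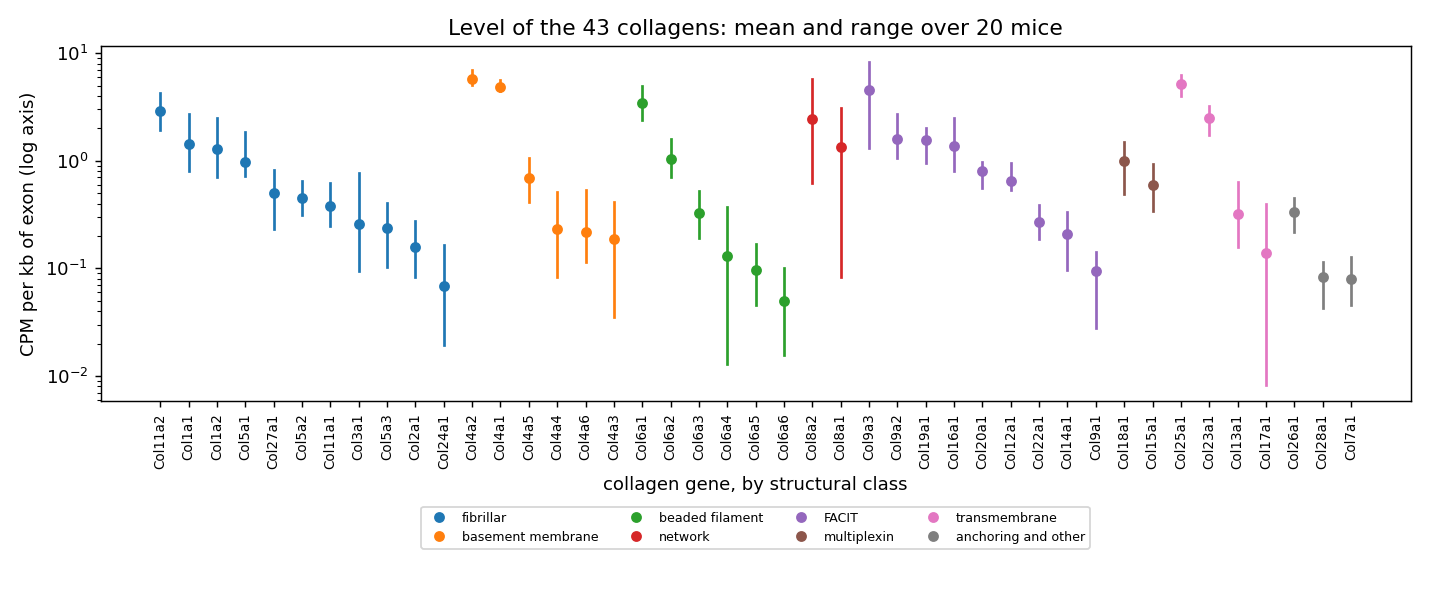
Mean level (point) and range over the 20 mice (line) of each of the 43 collagens in CPM per kb of exon on a log axis, coloured by structural class. Col4a2, Col25a1 and Col4a1 combine a high level with a short range, while the lines of Col8a1, Col17a1, Col6a4 and Col4a3 are the longest.

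Type IV collagen, the sheet of the basement membrane, showed both extremes. Its chains are encoded in 3 head-to-head gene pairs, Col4a1 with Col4a2 on chromosome 8, Col4a3 with Col4a4 on chromosome 1 and Col4a5 with Col4a6 on chromosome X. In the GENCODE M21 annotation of mm10 the genes of the pairs overlap by 22 bases, lie 71 bases apart and lie 1308 bases apart, in that order. The RefSeq starts of Col4a1 (minus strand, base 11312826) and Col4a2 (plus strand, base 11312805) bound the stretch below, shown because it is the shared start of the most steadily expressed pair (GRCm38.p6, chr8:11312805-11312826, plus strand).
Col4a1 and Col4a2 shared start: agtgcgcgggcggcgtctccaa

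Col4a1 was at 39.1, 34.1, 34, 33.4 and 37 CPM in the WT Non-Tg mice, at 36.7, 41.8, 35.2, 34.4 and 33.8 in the KO Non-Tg mice, at 36.9, 39.97, 35.1, 36 and 37.4 in the WT Tg-SwDI mice and at 42.2, 33.5, 36.3, 34.5 and 34.2 in the KO Tg-SwDI mice. The means of Col4a1 were 35.5 ± 2.41, 36.4 ± 3.22, 37.1 ± 1.83 and 36.2 ± 3.55 CPM in that order (SD, n = 5). Col4a2 was at 41.6, 39, 35.1, 36.4 and 41.2 CPM in the WT Non-Tg mice, at 39.4, 44.5, 37.7, 35 and 35.7 in the KO Non-Tg mice, at 38.4, 40.4, 36.9, 38.3 and 36.6 in the WT Tg-SwDI mice and at 46.3, 33.4, 34.6, 33.5 and 38.3 in the KO Tg-SwDI mice. The means of Col4a2 were 38.7 ± 2.88, 38.5 ± 3.8, 38.1 ± 1.5 and 37.2 ± 5.43 CPM in that order (SD, n = 5). The groups overlapped fully for both chains, and in none of the 4 pairwise comparisons did either log2 fold change leave the range of -0.05 to 0.06. With SEs of 0.07 to 0.08 these were among the most precisely measured members. Across the 20 mice, with the group means taken out, Col4a1 and Col4a2 varied together (Pearson r = 0.88, Spearman rho = 0.78, permutation test within groups, p = 0.00025 and 0.00056, adjusted over 6 chain pairs 5e-04 and 0.00112, and r = 0.73 without KO Tg-SwDI 1 and KO Non-Tg 2).

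The other chain pairs were tested in the same way. The type I chains Col1a1 and Col1a2, which join in 1 trimer, gave r = 0.94 and rho = 0.93 (permutation test, p = 2e-05 and 3e-05, adjusted 0.00012 and 9e-05), and r was 0.92 without KO Tg-SwDI 3 and KO Non-Tg 2. Col1a1 and Col3a1, partners in the same fibrils, gave r = 0.89 and rho = 0.95 (permutation test, p = 2e-04 and 2e-05, adjusted 5e-04 and 9e-05) and 0.88 without these mice. For Col6a1 and Col6a2, which share a trimer with Col6a3, r was 0.57 and rho 0.58 (permutation test, p = 0.0206 and 0.0165, adjusted 0.0247 and 0.0248), with r = 0.66 without KO Tg-SwDI 1 and 3. Col5a1 and Col5a2 of type V gave r = 0.62 and rho = 0.55 (permutation test, p = 0.00969 and 0.0229, adjusted 0.0145 and 0.0275), but r fell to 0.37 without KO Tg-SwDI 1 and WT Tg-SwDI 3, so this relation rested on those mice. For the remaining pair no such relation was found: for Col6a2 and Col6a3, r was -0.33 and rho -0.30 (permutation test, p = 0.261 and 0.256, both also after adjustment), and -0.13 without KO Non-Tg 1 and KO Tg-SwDI 8.

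**Figure D2:**
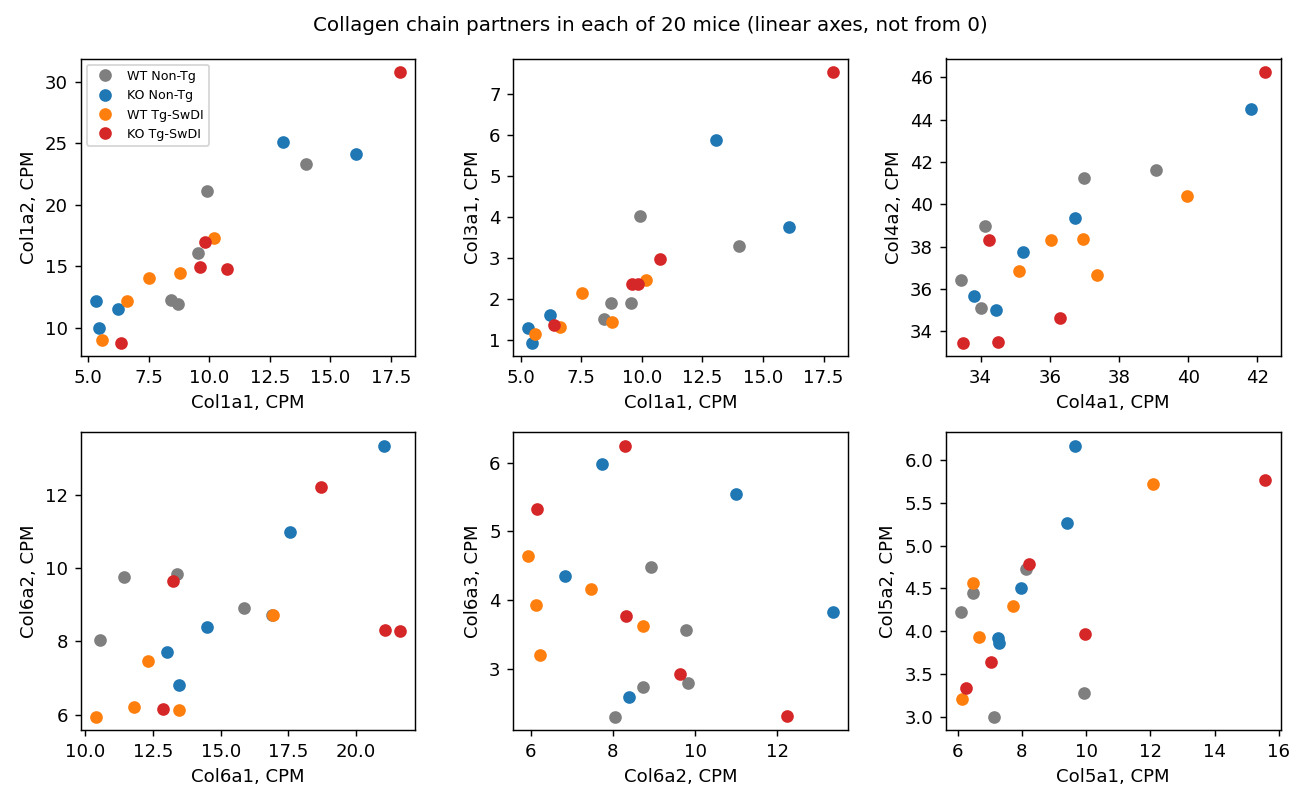
Levels in CPM of 6 pairs of collagen chains that join in 1 trimer or fibril, 1 point per mouse, coloured by group. Col1a1 with Col1a2 and Col4a1 with Col4a2 lie close to a line, and Col6a2 with Col6a3 do not.

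The type I and type III chains, the main fibril collagens of connective tissue, varied between mice of the same group. Col1a1 was at 9.55, 8.73, 14, 8.45 and 9.93 CPM in the WT Non-Tg mice, at 13.1, 16.1, 6.23, 5.33 and 5.47 in the KO Non-Tg mice, at 6.62, 7.52, 8.79, 10.2 and 5.6 in the WT Tg-SwDI mice and at 9.61, 6.37, 17.9, 9.84 and 10.7 in the KO Tg-SwDI mice. The means of Col1a1 were 10.1 ± 2.24, 9.23 ± 4.999, 7.74 ± 1.8 and 10.9 ± 4.25 CPM in that order (SD, n = 5). Col3a1 was at 1.89, 1.88, 3.29, 1.5 and 4.01 CPM in the WT Non-Tg mice, at 5.88, 3.75, 1.59, 1.3 and 0.919 in the KO Non-Tg mice, at 1.31, 2.13, 1.42, 2.46 and 1.15 in the WT Tg-SwDI mice and at 2.37, 1.36, 7.54, 2.36 and 2.97 in the KO Tg-SwDI mice. The means of Col3a1 were 2.51 ± 1.08, 2.69 ± 2.1, 1.7 ± 0.569 and 3.32 ± 2.43 CPM in that order (SD, n = 5). For both genes KO Tg-SwDI 3, KO Non-Tg 1 and KO Non-Tg 2 stood among the highest, and the other KO Non-Tg mice among the lowest. Col1a2 ran from 8.77 CPM in KO Tg-SwDI 2 to 30.8 CPM in KO Tg-SwDI 3. The summed level of 12 markers of meningeal and perivascular fibroblasts, which contain no collagen, ran from 233 to 636 CPM in WT Non-Tg, from 198 to 483 CPM in KO Non-Tg, from 210 to 512 CPM in WT Tg-SwDI and from 188 to 604 CPM in KO Tg-SwDI mice. In KO Tg-SwDI 8, the highest of that group, Igf2 gave 281 CPM and Igfbp2 81.9 CPM of the sum. Igfbp2 followed Ttr, at 64.7 CPM or more in the 11 libraries high in Ttr and 43.8 CPM or less in the other 9. By the summed level, fibroblast and choroid plexus content can therefore not be fully told apart. Not all 12 markers followed Ttr: Fmod was highest in KO Non-Tg 1 at 41.1 CPM, a library low in Ttr. In that mouse the mean log2 level of the 12 markers, relative to the mean of all mice, was 0.65. The same measure of 13 choroid plexus markers was -2.61 there. With the mean log2 level of the 12 markers as a covariate all 10 collagens called for the transgene in KO mice, given below, stayed called, and Col17a1 was added, and on average over genotypes the calls went from 5 to 11. The 6 added on average were Col4a3, Col4a4, Col8a1, Col8a2, Col9a3 and Col17a1, the genes that ran beside Ttr, described below.

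The study asked what loss of miR-34a does in mice with and without the transgene, so the collagens were first compared between KO and WT. miR-34a-5p is the mature strand of the microRNA, encoded on chromosome 4 (GRCm38.p6, chr4:150068473-150068494, plus strand). A microRNA recognises its targets mainly through its seed, bases 2 to 8, which is in capitals.
mmu-miR-34a-5p: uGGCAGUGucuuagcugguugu
A 7-base match to that seed was found in the 3'UTR of 9 of the 43 collagens (20.9%), against 2292 of 14719 tested protein-coding genes with a 3'UTR (15.6%), in 1 transcript per gene, the one with the longest coding sequence. The median 3'UTR was 882 bases long for the collagens and 995 for all. The 9 genes were Col4a3, Col4a4, Col4a6, Col6a1, Col6a2, Col6a6, Col9a3, Col12a1 and Col23a1, and in Col4a3 and Col4a4 the match was extended by the A opposite base 1 of the microRNA. The sites of Col4a3 (chr1:82721637-82721644, plus strand), Col4a4 (chr1:82452524-82452531, minus strand), Col6a1 (chr10:76709272-76709278, minus strand), Col6a2 (chr10:76595960-76595966, minus strand) and Col9a3 (chr2:180621990-180621996, plus strand) are shown in mm10 with the match in capitals, because these genes recur in the results.
Col4a3 3'UTR: agcacaggCACTGCCAcataaata
Col4a4 3'UTR: cctttctaCACTGCCAgcattagc
Col6a1 3'UTR: ttcctcctCACTGCCcctaaccta
Col6a2 3'UTR: agtcttccCACTGCCtgtttccca
Col9a3 3'UTR: acataaagCACTGCCtcacaatat
These matches are a description of the letters in the reference and were not tested for function.

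No collagen was called between KO and WT mice at an adjusted p under 0.05 by edgeR's quasi-likelihood test, and DESeq2 and edgeR's exactTest called 0 as well. Among all tested genes 1.99% were called in Tg-SwDI mice and 0% in Non-Tg mice. At an unadjusted p under 0.05 there were 6 collagens in Tg-SwDI mice and 7 in Non-Tg mice, and the median log2 fold change of the 43 was 0.08 and 0.05, and over all genes 0.00 and -0.00. The share of all genes at that unadjusted threshold is not reported here, for these counts or those given below. The 6 in Tg-SwDI mice were all higher in KO: Col4a6, Col6a1, Col6a2, Col15a1, Col16a1 and Col22a1, which were chosen for naming after their values were seen, with log2 fold changes between 0.37 and 0.71 and adjusted p between 0.143 and 0.258. In the Non-Tg comparison the 7 were Col4a3, Col4a4, Col8a1, Col8a2, Col9a3 and Col17a1, all lower in KO, and Col25a1, higher in KO, with adjusted p between 0.526 and 0.615. The first 6 of these are the collagens that ran beside Ttr, described below.

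Of the type VI chains with a seed match, Col6a1 and Col6a2 illustrate these values. Col6a6, the other one, had 3 to 19 counts per library. Its log2 fold change between KO and WT was 0.64 (SE 0.35, adjusted p = 0.331) in Tg-SwDI and 0.57 (SE 0.35, adjusted p = 0.721) in Non-Tg mice. Col6a1 was at 13.4, 16.9, 11.4, 10.5 and 15.8 CPM in the WT Non-Tg mice, at 21, 17.5, 13, 14.5 and 13.4 in the KO Non-Tg mice, at 16.9, 12.3, 13.5, 10.4 and 11.8 in the WT Tg-SwDI mice and at 21.6, 12.9, 21.1, 13.2 and 18.7 in the KO Tg-SwDI mice. The means of Col6a1 were 13.6 ± 2.75, 15.9 ± 3.37, 13 ± 2.48 and 17.5 ± 4.21 CPM in that order (SD, n = 5). Col6a2 was at 9.84, 8.73, 9.77, 8.05 and 8.93 CPM in the WT Non-Tg mice, at 13.3, 11, 7.72, 8.4 and 6.82 in the KO Non-Tg mice, at 8.73, 7.47, 6.14, 5.94 and 6.22 in the WT Tg-SwDI mice and at 8.28, 6.16, 8.31, 9.64 and 12.2 in the KO Tg-SwDI mice. The means of Col6a2 were 9.06 ± 0.752, 9.46 ± 2.67, 6.9 ± 1.19 and 8.92 ± 2.23 CPM in that order (SD, n = 5). In KO mice both means lay above those of the WT mice with the same transgene status, and the groups overlapped. For Col6a1 the log2 fold change was 0.43 (SE 0.18, adjusted p = 0.202) in Tg-SwDI and 0.22 (SE 0.18, adjusted p = 0.825) in Non-Tg mice, and for Col6a2 0.37 (SE 0.17, adjusted p = 0.258) and 0.06 (SE 0.17, adjusted p = 0.976). Col6a3, the remaining chain of the trimer, ran from 2.30 CPM in WT Non-Tg 6 to 6.25 CPM in KO Tg-SwDI 1, with a log2 fold change of 0.08 (SE 0.25, adjusted p = 0.894) between KO and WT in Tg-SwDI mice. Over all 9 genes with a match the log2 fold changes were -0.12 to 0.71 in Tg-SwDI and -1.44 to 0.57 in Non-Tg mice, with none called.

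The transgene was then compared within each miR-34a genotype, in different mice. In WT mice 1 of 43 collagens (2.33%) was called, higher in Tg-SwDI, against 4.41% of all tested genes called and 3.94% called higher. In KO mice 10 of 43 (23.3%) were called, 9 higher and 1 lower, against 20.8% of all tested genes, 12.5% higher and 8.31% lower. On the average of both transgene effects, 10 mice against 10, 5 of 43 (11.6%) were called, all higher, against 17.2% of all genes called and 11.3% higher. Counting higher calls alone, the share of collagens was 2.33% in WT, 20.9% in KO mice and 11.6% on average, and 4 of the 9 in KO mice were among the genes that ran beside Ttr, described below. The differences from the shares over all genes were not tested. The median log2 fold changes of the 43 were 0.04 in WT, 0.14 in KO and 0.04 on average, and over all genes they lay between -0.01 and 0.00. At an unadjusted p under 0.05 there were 4, 14 and 11 collagens, without the share of all genes at that threshold beside them. By class, the KO comparison called 3 of 11 fibrillar, 2 of 6 type IV, 1 of 2 network, 2 of 9 FACIT and 1 of 2 multiplexin members higher and 1 of 4 transmembrane members lower, and 0 of 6 type VI and 0 of 3 anchoring and other members. No member was called for the interaction, the difference between the transgene effects, where 0.608% of all genes were called; 3 members had an unadjusted p under 0.05, and DESeq2 called 0.

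**Figure D3:**
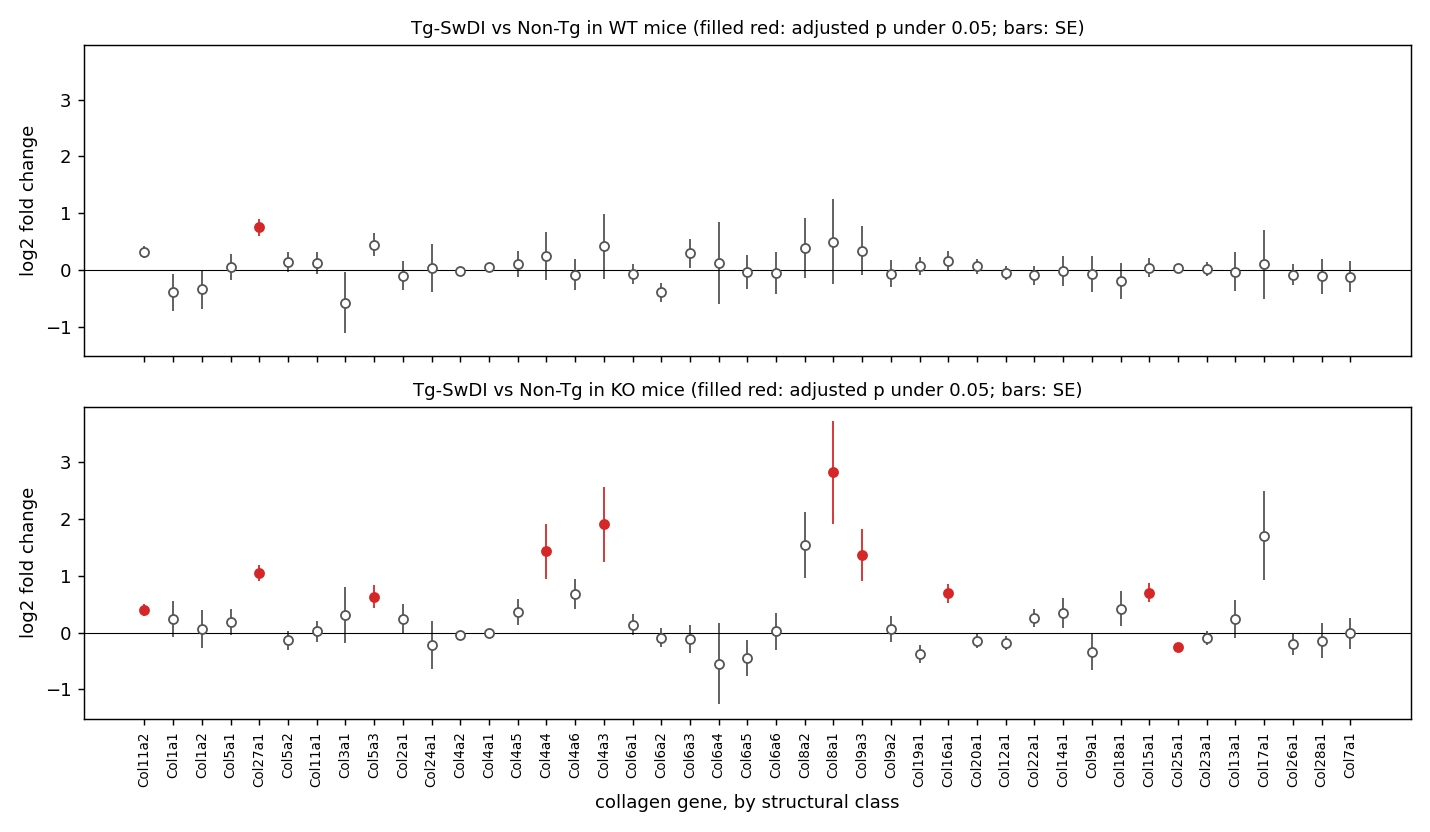
Log2 fold change with its SE of each of the 43 collagens between Tg-SwDI and Non-Tg mice, in WT mice (upper panel) and in KO mice (lower panel), with genes called at an adjusted p under 0.05 filled in red. Col27a1 is the single filled point in WT mice, and in KO mice the points of Col8a1, Col4a3, Col4a4 and Col9a3 stand highest among the filled ones, with long error bars.

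Col27a1, a fibrillar collagen known from cartilage, was higher in Tg-SwDI mice of both genotypes. Col27a1 was at 5.01, 5.31, 3.01, 3.75 and 5.92 CPM in the WT Non-Tg mice, at 5.41, 4.55, 4.25, 4.37 and 3.53 in the KO Non-Tg mice, at 8.87, 6.76, 8.44, 7.78 and 6.98 in the WT Tg-SwDI mice and at 10.7, 8.61, 10.003, 7.49 and 8.92 in the KO Tg-SwDI mice. Every Tg-SwDI mouse was above every Non-Tg mouse, and this was the sole collagen whose groups did not overlap in the pooled comparison, where 3.1% of all genes had groups without overlap. In WT mice the groups of Col27a1 and of Col11a2 did not overlap, against 6.69% of all genes, and in KO mice those of Col27a1 and Col15a1, against 12.8%. For Col27a1 the log2 fold change was 0.76 (SE 0.15, adjusted p = 0.00112) in WT mice, 1.05 (SE 0.15, adjusted p = 6.26e-06) in KO mice and 0.90 (SE 0.10, adjusted p = 2.06e-07) on average, and the difference between genotypes was 0.29 on the log2 scale (SE 0.21, adjusted p = 0.475). In the alternatives tried its log2 fold change stayed between 0.63 and 0.86 in WT and between 0.98 and 1.14 in KO mice, and it was called in 32 of 32 of them in each. Its promoter is shown because it is the member with the most stable call: the 250 bases before the RefSeq start (GRCm38.p6, chr4:63215162-63215411, plus strand), with motifs in capitals.
Col27a1 promoter: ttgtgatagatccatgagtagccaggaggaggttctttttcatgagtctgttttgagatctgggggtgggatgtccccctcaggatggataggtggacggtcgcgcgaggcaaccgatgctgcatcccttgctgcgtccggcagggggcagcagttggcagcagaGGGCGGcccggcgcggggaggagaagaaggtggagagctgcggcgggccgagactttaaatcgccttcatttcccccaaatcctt
Both strands were searched for the GC box, spelled GGGCGG, for the TATA box, spelled TATAAA, for the CCAAT box, which its name spells, and for the core bound by the homeobox factor OTX2, spelled TAATCC. In this window the GC box occurs at 1 position and the others at none. Over all 32851 promoter windows of that length, 32.7% hold the GC box, 12.4% the TATA box, 33.8% the CCAAT box and 6.25% the OTX2 core, and of the 37 windows of 34 matched collagens 22, 4, 13 and 0 do, in that order.

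Microglia markers moved with the same contrast. The sum of 6 such markers was 233 to 287 CPM over both Non-Tg groups, 454 to 518 CPM in WT Tg-SwDI and 481 to 679 CPM in KO Tg-SwDI mice, with 6 of 6 called higher in both genotypes. Astrocyte markers were called higher for 2 of 5 in each genotype, with summed levels of 1086 to 1280 CPM in Non-Tg and 1218 to 1627 CPM in Tg-SwDI mice. Among all tested genes 3.94% were called higher in WT and 12.5% in KO mice, and no difference from these shares was tested. The part of either cell type in the collagen changes was not tested.

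Col11a2 and Col5a3, chains that mix into cartilage-type and type V fibrils, were the other fibrillar collagens called. Col11a2 was at 17.4, 18.3, 17, 15.6 and 16.6 CPM in the WT Non-Tg mice, at 19.9, 13.2, 20.1, 19 and 17.4 in the KO Non-Tg mice, at 21.2, 22.7, 20.2, 22.1 and 19.8 in the WT Tg-SwDI mice and at 29.6, 26.5, 23.6, 19.4 and 18.9 in the KO Tg-SwDI mice. In WT mice all 5 Tg-SwDI values of Col11a2 were above the 5 Non-Tg values, and in KO mice 2 Tg-SwDI values fell among the Non-Tg ones. For Col11a2 the log2 fold change was 0.40 (SE 0.11, adjusted p = 0.0125) in KO mice, 0.36 (SE 0.08, adjusted p = 0.002) on average and 0.32 (SE 0.11, adjusted p = 0.129) in WT mice, where it was not called. Col5a3 was at 1.23, 1.74, 1.36, 0.6997 and 1.15 CPM in the WT Non-Tg mice, at 1.72, 1.38, 1.3, 1.2 and 1.26 in the KO Non-Tg mice, at 1.5, 1.7, 1.42, 1.69 and 2.1 in the WT Tg-SwDI mice and at 2.75, 2.14, 2.37, 1.44 and 1.93 in the KO Tg-SwDI mice. For Col5a3 the groups overlapped, at 14 to 58 counts per library. It rose on average (log2 fold change 0.54, SE 0.14, adjusted p = 0.00908) and in KO mice (log2 fold change 0.63, SE 0.20, adjusted p = 0.0253), and the latter call was lost without any 1 of KO Non-Tg 4, 7 and 8 and KO Tg-SwDI 1 and 3 (adjusted p 0.0535 to 0.0766). With the choroid plexus score, described below, as a covariate Col11a2 kept its call in KO mice (0.46, adjusted p = 0.0298), Col5a3 did not (0.73, adjusted p = 0.0631), and both kept it on average. The call of Col11a2 in KO mice was lost when only the 10 KO mice were fitted.

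**Figure D4:**
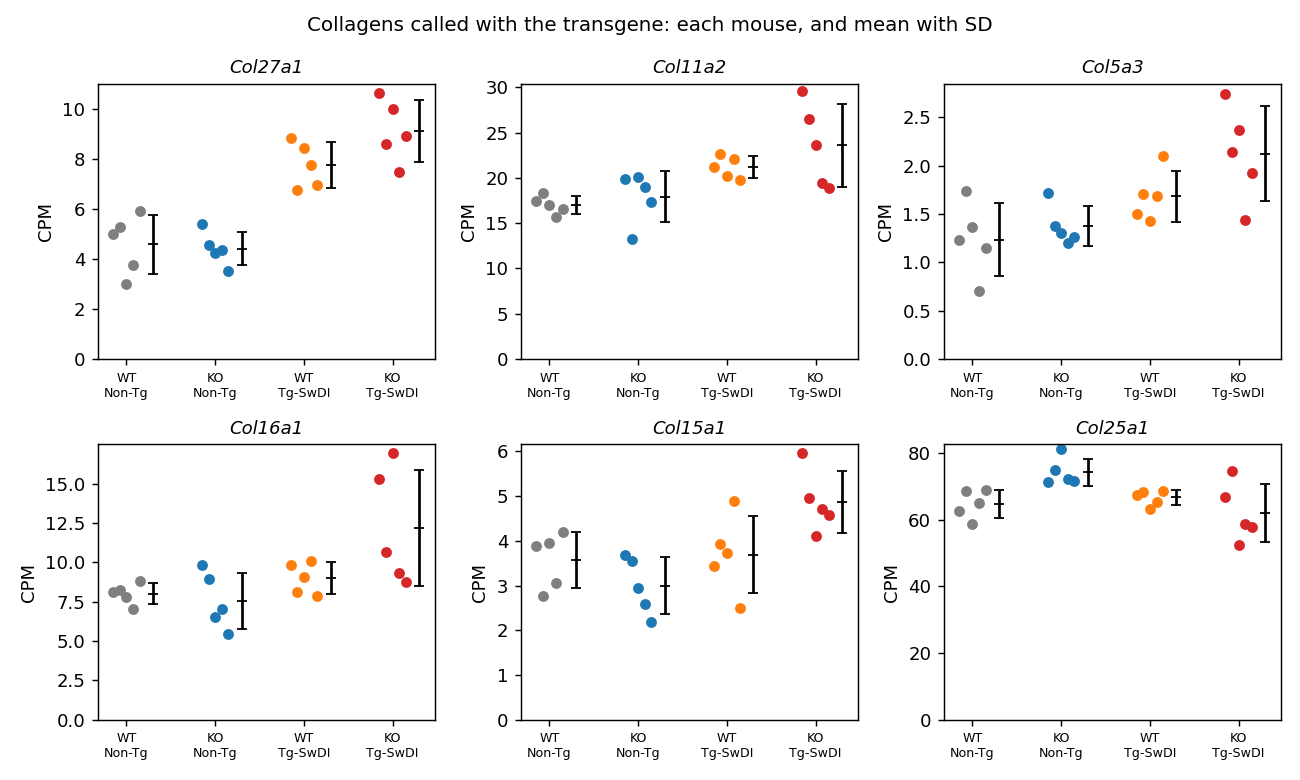
Level in CPM of 6 collagens in each mouse by group (points), with the group mean and SD (bars), on axes that start at 0. All Tg-SwDI points of Col27a1 are above all Non-Tg points, the KO Tg-SwDI points of Col15a1 are above all KO Non-Tg points, and 4 of the 5 KO Tg-SwDI points of Col25a1 are below all KO Non-Tg points.

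Col16a1, a FACIT collagen, and Col15a1, a multiplexin of basement membranes, were called in KO mice and on average. Col16a1 was at 8.13, 8.23, 7.8, 7.05 and 8.83 CPM in the WT Non-Tg mice, at 9.81, 8.96, 6.51, 7.004 and 5.47 in the KO Non-Tg mice, at 9.86, 8.09, 9.08, 10.1 and 7.84 in the WT Tg-SwDI mice and at 15.3, 10.6, 16.9, 9.33 and 8.75 in the KO Tg-SwDI mice. For this gene KO Tg-SwDI 1 and 3 stood above all other mice, and KO Tg-SwDI 5 and 8 lay within the range of the KO Non-Tg mice. The log2 fold change was 0.69 (SE 0.17, adjusted p = 0.00546) in KO and 0.43 (SE 0.12, adjusted p = 0.0152) on average. Col15a1 was at 3.88, 2.78, 3.94, 3.05 and 4.2 CPM in the WT Non-Tg mice, at 3.68, 3.56, 2.94, 2.59 and 2.18 in the KO Non-Tg mice, at 3.43, 3.93, 3.73, 4.88 and 2.49 in the WT Tg-SwDI mice and at 5.96, 4.96, 4.11, 4.72 and 4.57 in the KO Tg-SwDI mice. For Col15a1 all KO Tg-SwDI mice were above all KO Non-Tg mice, whereas the WT groups overlapped. The log2 fold change was 0.70 (SE 0.17, adjusted p = 0.00354) in KO and 0.37 (SE 0.12, adjusted p = 0.0285) on average, and in WT mice 0.05 (SE 0.17, adjusted p = 0.938). The call of Col15a1 on average was lost without any 1 of WT Non-Tg 3 and 6, KO Non-Tg 7 and 8, WT Tg-SwDI 4 and 6 and KO Tg-SwDI 1 (adjusted p 0.0515 to 0.0704). With the choroid plexus score as a covariate neither gene was called in KO mice (0.60, adjusted p = 0.0898 for Col16a1, and 0.47, adjusted p = 0.134 for Col15a1), nor on average (0.36, adjusted p = 0.149, and 0.22, adjusted p = 0.371). The related multiplexin Col18a1, source of endostatin, ran from 3.45 CPM in WT Non-Tg 6 to 10.4 CPM in KO Tg-SwDI 8, with a log2 fold change of 0.42 (SE 0.31, adjusted p = 0.376) in KO mice.

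Of the called members the largest fold changes in KO mice belonged to Col8a1, Col4a3, Col4a4 and Col9a3. Col8a1 and Col8a2 encode the network collagen type VIII, known from the basement membranes of the cornea and of vessels, Col4a3 and Col4a4 the type IV chains known from the kidney glomerulus, and Col9a3 a FACIT chain of cartilage. Col8a1 was at 9.84, 1.64, 17.1, 0.65 and 24.2 CPM in the WT Non-Tg mice, at 1.58, 3.13, 1.45, 2.16 and 1.69 in the KO Non-Tg mice, at 17.4, 17, 16.5, 23.5 and 1.58 in the WT Tg-SwDI mice and at 10.7, 0.939, 19.1, 19 and 21.2 in the KO Tg-SwDI mice. Its values fell into a low set between 0.65 and 3.13 CPM and a high set between 9.84 and 24.2 CPM, with both sets in every group except KO Non-Tg, whose 5 mice were all low. The log2 fold change was 2.82 (SE 0.90, adjusted p = 0.0358) in KO mice and 0.50 (SE 0.75, adjusted p = 0.829) in WT mice.

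Col9a3 was at 19.5, 7.88, 26.7, 5.05 and 31.8 CPM in the WT Non-Tg mice, at 7.61, 10.4, 7.43, 7.58 and 8.22 in the KO Non-Tg mice, at 29.8, 24.1, 24.9, 28.7 and 7.99 in the WT Tg-SwDI mice and at 24.9, 9.29, 23.8, 24.7 and 23.3 in the KO Tg-SwDI mice. The same mice were high and low as for Col8a1. The log2 fold change was 1.36 (SE 0.46, adjusted p = 0.0439) in KO mice. Col4a3 ran from 0.35 to 4.15 CPM and Col4a4 from 0.893 to 5.40 CPM over the 20 mice, with a log2 fold change of 1.90 (SE 0.65, adjusted p = 0.0484) for Col4a3 and a log2 fold change of 1.43 (SE 0.48, adjusted p = 0.043) for Col4a4 in KO mice. In the KO comparison KO Tg-SwDI 2 lay within the range of the KO Non-Tg mice for Col9a3, Col4a3 and Col4a4 and below it for Col8a1, so the groups of all 4 genes overlapped.

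These 4 genes, together with Col8a2 and Col17a1, a transmembrane collagen of hemidesmosomes, ran beside Ttr library by library. In the 11 libraries above the gap in Ttr, Col8a1 was at 9.84 to 24.2, Col8a2 at 9.99 to 25.8 and Col9a3 at 19.5 to 31.8 CPM. In the 9 libraries below it they were at 0.65 to 3.13, 2.80 to 7.07 and 5.05 to 10.4 CPM. Col4a3, Col4a4 and Col17a1 likewise lay at 1.51 to 4.15, 2.75 to 5.40 and 0.947 to 2.39 CPM above the gap and at 0.35 to 1.09, 0.893 to 1.28 and 0.05 to 0.478 CPM below it. The gap was seen in the data, and 6 of 43 collagens and 1.29% of all tested genes had no overlap across it. Otx2, a factor of the choroid plexus, was at 10.4 to 18.7 and 1.35 to 4.98 CPM on the same sides.

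Over all tested genes 12.5% were called higher with the transgene in KO mice and 4.41% were called in WT mice. Of 13 choroid plexus markers, 11 were called higher in Tg-SwDI than in Non-Tg KO mice (median log2 fold change 2.999), and 0 were called in WT mice. Their summed level ran from 271 to 728 CPM in KO Non-Tg mice, from 309 to 6884 CPM in WT Non-Tg, from 405 to 5767 CPM in WT Tg-SwDI and from 420 to 5628 CPM in KO Tg-SwDI mice. With the mean log2 level of these markers as a covariate, the log2 fold change in KO mice was -0.28 for Col8a1, -0.11 for Col4a3, 0.03 for Col4a4 and 0.05 for Col9a3 (adjusted p 0.45, 0.889, 0.991 and 0.887), and 2 collagens, Col27a1 and Col11a2, stayed called of the 10. In KO mice this score nearly followed the groups: all Non-Tg libraries were below the gap in Ttr, and all Tg-SwDI ones but KO Tg-SwDI 2 above it. Choroid plexus content and transgene can therefore hardly be told apart in this fit, for these or the other collagens. The calls of these 4 genes were also lost with no filter on low counts (adjusted p 0.0607 to 0.0893). They lay near the threshold and were lost without many of the single mice. With each mouse left out in turn, the log2 fold change stayed at 2.63 to 3.13 for Col8a1 and 1.67 to 2.15 for Col4a3. For Col4a4 it stayed at 1.13 to 1.66 and for Col9a3 at 1.30 to 1.57. The call of Col8a1 was lost without any 1 of KO Non-Tg 1, 4, 7 and 8 and KO Tg-SwDI 3, 5 and 8 (adjusted p 0.0634 to 0.0774). Those of the others were lost without any 1 KO Non-Tg mouse, without KO Tg-SwDI 1, 3, 5 or 8, and without WT Non-Tg 2 or WT Tg-SwDI 5, to which Col9a3 adds WT Tg-SwDI 4 and 6 and Col4a3 adds these, WT Tg-SwDI 3 and WT Non-Tg 4 (adjusted p 0.0512 to 0.122). The number of collagens called was 5 without KO Non-Tg 4, 7 or 8 or KO Tg-SwDI 3, and 6 without KO Non-Tg 1 or KO Tg-SwDI 8.

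**Figure D5:**
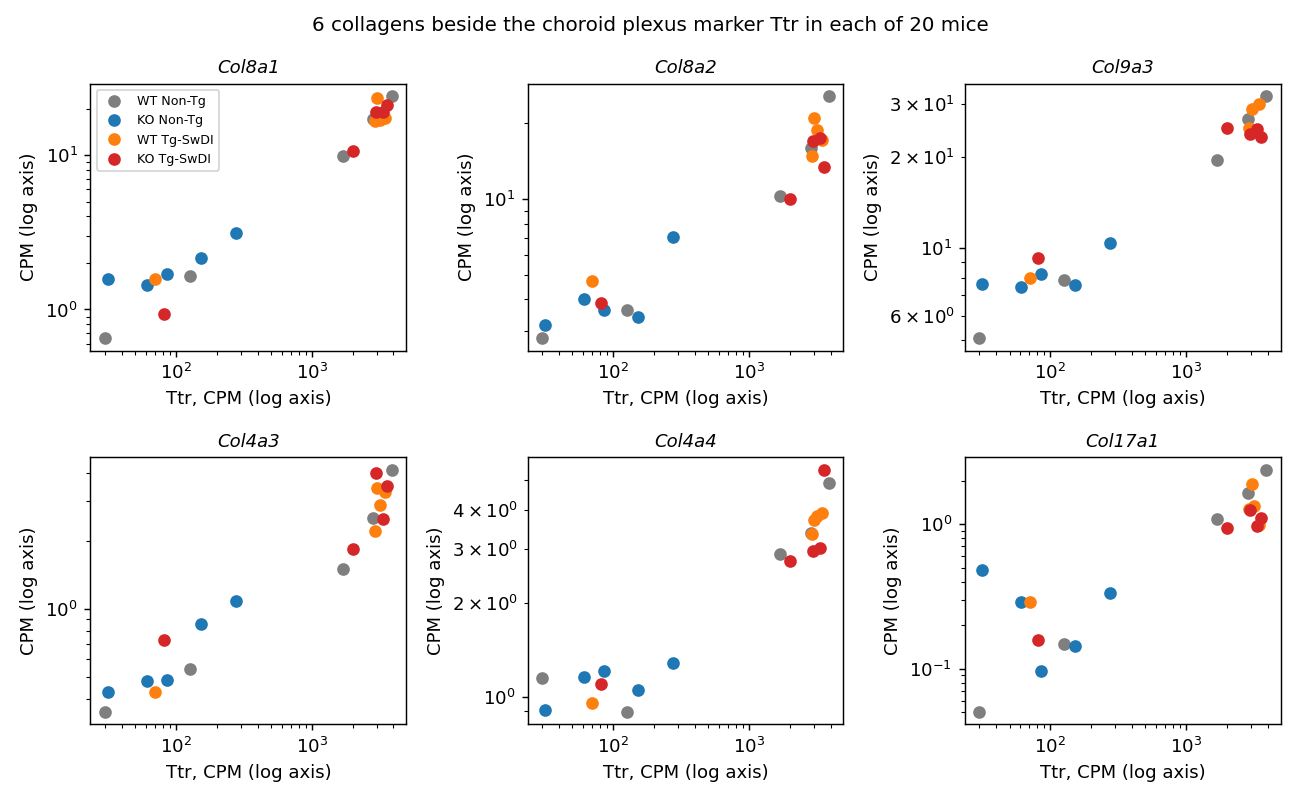
Level of 6 collagens against Ttr in CPM on log axes, 1 point per mouse, coloured by group. For each gene the 11 libraries with Ttr of 1691 CPM or more lie above the 9 with Ttr of 277 CPM or less, and all KO Non-Tg points are in the lower set.

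The promoters of the type VIII pair are shown since both genes followed Ttr from different chromosomes: 250 bases before the RefSeq start of Col8a1 (GRCm38.p6, chr16:57754738-57754987, minus strand) and of Col8a2 (chr4:126286544-126286793, plus strand), with the same motifs in capitals.
Col8a1 promoter: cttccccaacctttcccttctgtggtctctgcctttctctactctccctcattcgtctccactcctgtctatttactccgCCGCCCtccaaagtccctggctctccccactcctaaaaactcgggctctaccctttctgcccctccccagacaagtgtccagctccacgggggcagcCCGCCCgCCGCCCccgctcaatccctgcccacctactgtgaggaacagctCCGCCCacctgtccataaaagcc
Col8a2 promoter: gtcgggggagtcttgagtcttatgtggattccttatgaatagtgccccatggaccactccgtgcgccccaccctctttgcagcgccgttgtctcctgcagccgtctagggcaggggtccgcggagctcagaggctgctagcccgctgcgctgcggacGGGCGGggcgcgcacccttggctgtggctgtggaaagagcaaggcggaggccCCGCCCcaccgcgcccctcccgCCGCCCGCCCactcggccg
Each window holds the GC box, read on either strand, at 4 positions, some of which overlap in Col8a2, and none of the other motifs.

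Col25a1 was the sole collagen called lower. It encodes a neuronal transmembrane collagen whose shed fragment is known to collect in amyloid plaques. Col25a1 was at 62.6, 68.5, 58.7, 65 and 68.7 CPM in the WT Non-Tg mice, at 71.3, 74.7, 81.1, 72.1 and 71.4 in the KO Non-Tg mice, at 67.4, 68.3, 63.3, 65.4 and 68.6 in the WT Tg-SwDI mice and at 66.7, 74.6, 52.3, 58.6 and 57.8 in the KO Tg-SwDI mice. KO Non-Tg mice were the highest group, with every KO Non-Tg mouse above every WT Non-Tg mouse, and of the KO Tg-SwDI mice 1, 3, 5 and 8 were below all KO Non-Tg mice and 2 was among them. How many of all genes separate KO from WT mice in this way is not reported here. For Col25a1 the log2 fold change was -0.26 (SE 0.07, adjusted p = 0.0101) in KO mice, 0.04 (SE 0.07, adjusted p = 0.849) in WT mice, 0.20 (SE 0.07, adjusted p = 0.526) for KO against WT in Non-Tg and -0.30 (SE 0.10, adjusted p = 0.128) for the interaction. The call in KO mice was lost with the choroid plexus score as a covariate (-0.17, adjusted p = 0.216), and without KO Tg-SwDI 2 the interaction was called for this gene, as the 1 collagen. KO Tg-SwDI 2 is the sole KO Tg-SwDI library below the gap in Ttr. Without it choroid plexus content and transgene coincide in KO mice, and the part of either in that call was not tested.

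At an unadjusted p under 0.05 in KO mice there were, beside the 10 called, Col4a6, Col8a2, Col17a1 and Col19a1, which were chosen for naming after their values were seen. Col19a1 was at 9.13, 11.9, 6.57, 11.8 and 11.3 CPM in the WT Non-Tg mice, at 13.3, 12.1, 11.5, 12.9 and 11.9 in the KO Non-Tg mice, at 13.8, 9.84, 10.1, 10.1 and 9.42 in the WT Tg-SwDI mice and at 13.7, 8.92, 6.96, 8.82 and 8.92 in the KO Tg-SwDI mice. Col19a1, a FACIT collagen known from neurons and muscle, was lowest in WT Non-Tg 4 and in KO Tg-SwDI 3, and KO Tg-SwDI 1 stood above its group. The log2 fold change was -0.38 (SE 0.16, adjusted p = 0.0946) in KO mice. Col4a6 was at 1.75, 1.49, 1.6, 1.05 and 1.96 CPM in the WT Non-Tg mice, at 1.44, 2.47, 1.45, 0.912 and 1.31 in the KO Non-Tg mice, at 1.69, 1.7, 1.82, 1.26 and 0.957 in the WT Tg-SwDI mice and at 2.46, 1.98, 4.25, 1.54 and 1.87 in the KO Tg-SwDI mice. Col4a6, a type IV chain of smooth muscle basement membranes, was highest in KO Tg-SwDI 3, and the log2 fold change was 0.68 (SE 0.26, adjusted p = 0.0674) in KO mice. Col8a2 had a log2 fold change of 1.54 (SE 0.58, adjusted p = 0.0729) in KO mice, and Col17a1 a log2 fold change of 1.71 (SE 0.79, adjusted p = 0.136). In WT mice Col6a2 had the sole negative log2 fold change at that level (log2 fold change -0.39, SE 0.17, adjusted p = 0.272).

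The remaining representatives of the classes, Col5a1, Col12a1 and Col13a1, were not called in any comparison. Col5a1 ran from 6.11 to 15.6 CPM, with KO Tg-SwDI 1 the highest, and its average transgene effect was 0.12 (SE 0.16, adjusted p = 0.68) on the log2 scale. Col12a1, a FACIT collagen of 8.13 to 14.6 CPM, gave -0.12 (SE 0.09, adjusted p = 0.373). Col13a1, a transmembrane collagen of muscle synapses, ran from 0.724 to 2.95 CPM and gave 0.10 (SE 0.24, adjusted p = 0.813). Col6a6, the lowest member, had 3 to 19 counts per library and gave -0.01 (SE 0.25, adjusted p = 0.98), so a small change of this gene could not be detected at this depth. Type VI as a whole was not called in any comparison: Col6a4, which varied most of the 6, ran from 0.11 CPM in KO Tg-SwDI 8 to 3.14 CPM in WT Tg-SwDI 6, and the median log2 fold change of the 6 was -0.04 in WT and -0.10 in KO mice with the transgene.

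The machinery around the collagens was read from lists of other genes. Of 18 genes for folding and modification of procollagen chains, 8 were higher in Tg-SwDI than in Non-Tg KO mice, 0 lower, and 0 of 18 were called in WT mice. The counts of these lists stand beside 20.8% of all tested genes called in KO mice, 12.5% higher and 8.31% lower, and 4.41% called in WT mice, and no difference from these shares was tested. The 4 with the lowest p were P3h2, a prolyl 3-hydroxylase (log2 fold change 0.91, SE 0.15, adjusted p = 8.70e-05), the lysyl hydroxylases Plod1 (0.40) and Plod3 (0.41), and P4ha3, a prolyl 4-hydroxylase subunit (0.80, SE 0.17, adjusted p = 0.00104). The list's median log2 fold change was 0.19 in KO and 0.11 in WT mice.

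Of 13 genes for procollagen cleavage and crosslinking, 1 was called in WT mice and 6 in KO mice, 4 higher and 2 lower. Lox, lysyl oxidase, which crosslinks collagen, was called in both. Lox was at 1.18, 0.248, 0.845, 0.5997 and 1.15 CPM in the WT Non-Tg mice, at 1.1, 1.75, 0.676, 0.384 and 0.774 in the KO Non-Tg mice, at 3.05, 3.41, 3.39, 3.53 and 2.25 in the WT Tg-SwDI mice and at 3.79, 5.06, 4.01, 2.46 and 2.97 in the KO Tg-SwDI mice. Every Tg-SwDI value of Lox was above every Non-Tg value. For Lox the log2 fold change was 1.94 (SE 0.31, adjusted p = 0.000203) in WT and 1.96 (SE 0.30, adjusted p = 5.38e-05) in KO mice. In KO mice Pcolce2, an enhancer of procollagen cleavage, and Loxl3 were also higher (0.89 and 0.41), and the protease Tll1 was lower (-0.52).

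Adamts2, the protease that removes the amino-terminal propeptide of fibrillar procollagens, was the member of this list called between KO and WT. Adamts2 was at 11.9, 11.4, 11.4, 11.7 and 12.5 CPM in the WT Non-Tg mice, at 13.3, 12.5, 10.7, 12 and 10.9 in the KO Non-Tg mice, at 13.1, 17.3, 12.2, 12.3 and 13.5 in the WT Tg-SwDI mice and at 9.42, 7.83, 10.2, 10.9 and 10.6 in the KO Tg-SwDI mice. All KO Tg-SwDI mice were below all WT Tg-SwDI mice (log2 fold change -0.48, SE 0.10, adjusted p = 0.0139), and in KO mice it was also called lower with the transgene (log2 fold change -0.28, SE 0.10, adjusted p = 0.0487). Timp4, an inhibitor of matrix metalloproteinases, was likewise lower without miR-34a in Tg-SwDI mice (log2 fold change -0.23, SE 0.06, adjusted p = 0.0383). Its groups were barely apart, at 36.57 CPM or less in KO and 36.62 CPM or more in WT Tg-SwDI mice. The share of all genes without overlap between KO and WT is not reported here.

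Of 8 tested genes for degradation and its inhibitors, 2 were called with the transgene in KO mice, a count near the 20.8% of all genes, and 0 of 8 in WT mice. Both were higher: Timp1 (log2 fold change 1.08, SE 0.28, adjusted p = 0.00715) and Timp2 (log2 fold change 0.23, SE 0.06, adjusted p = 0.00898). Timp1 stood at 2.80 CPM in KO Tg-SwDI 3, at 0.994 to 1.16 CPM in the other KO Tg-SwDI mice and at 0.484 to 0.909 CPM in KO Non-Tg mice. Of 8 tested collagen receptors 4 were called higher in KO mice and 1 in WT mice. Lair1, an inhibitory collagen receptor of leukocytes and microglia, was higher in both (log2 fold change 1.09, SE 0.09, adjusted p = 1.02e-09 in WT, and 1.33, SE 0.09, adjusted p = 8.15e-12 in KO). In KO mice the receptor kinase Ddr1 (0.48), the endocytic receptor Mrc2 (0.82) and the integrin chain Itgb1 (0.28) followed. Of 16 other basement membrane genes 1 was called in WT mice and 2 in KO mice: Sparc, a collagen-binding glycoprotein, in both (log2 fold change 0.21, SE 0.06, adjusted p = 0.0253 in WT, and 0.53, SE 0.06, adjusted p = 7.12e-08 in KO), and Nid2 in KO mice (1.04, SE 0.34, adjusted p = 0.0382). Of the 22 genes of the 5 lists called in KO mice, 3 had no overlap across the gap in Ttr: Nid2, at 7.57 CPM or more in the 11 libraries above it and 5.26 CPM or less in the 9 below, Pcolce2, at 7.9 or more and 7.41 or less, and Loxl1, a lysyl oxidase relative named after its values were seen, at 5.397 or more and 5.37 or less. Over all tested genes 1.29% had no overlap across it. Among list genes not called, Pcolce had none either, at 11.6 CPM or more and 9.9 CPM or less. None of the 5 lists had a gene called for the interaction, so no transgene effect on these genes was shown to differ by miR-34a genotype. At an unadjusted p under 0.05 the interaction had 5 of 18, 3 of 13, 1 of 8, 1 of 8 and 1 of 16 genes of these lists, in the order given. The share of all genes at that threshold is not reported here. The choroid plexus, microglia and astrocyte markers described above moved with the same comparisons. Of 5 oligodendrocyte markers 4 were called higher in KO mice and 1 in WT mice, with a summed level of 3845 to 4484 CPM in KO Non-Tg and 4705 to 6114 CPM in KO Tg-SwDI mice, which did not overlap. Of 10 mural cell markers 2 were called higher in KO mice and 1 in WT mice, with sums of 239 to 322 CPM and 287 to 332 CPM in the same 2 groups. The oligodendrocyte and mural cell counts stand beside 12.5% of all genes called higher in KO and 3.94% in WT mice. No difference from these shares was tested. The part of these cell types in the lists, and of oligodendrocytes and mural cells in the collagen changes, was not tested.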

How the data were processed

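The authors aligned reads of stranded mRNA libraries to mm10 with STAR and counted them per gene with featureCounts, and the deposited table holds raw counts for 39056 Ensembl genes in 20 libraries. Strand and multimapping settings of the counting are not given in the sources used here. Identifiers were matched to GENCODE M21 (38872 matched). Genes were filtered with filterByExpr (minimum count 10), which left 16107, and counts were scaled by TMM and tested over all of them with edgeR 4.0.16 (R 4.3.3) by the quasi-likelihood F-test in 1 model of the 4 groups, with Benjamini-Hochberg adjustment and a threshold of 0.05. DESeq2 1.42.0, edgeR's exactTest and other scalings, filters, covariates and left-out mice were alternatives. Fold changes are log2, SEs are those of the fit, and log2 CPM used a prior count of 2.

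The members and gene lists were chosen with earlier results of these data known. Collagens named with values were those called in a comparison, fixed representatives of each class and the highest and lowest per kb, and of each gene list at most 4 called genes a comparison by lowest p. Named otherwise, a gene was chosen after its values were seen. Chain pairs were tested on log2 CPM less group means, with 100000 permutations within groups. On counts simulated for the transgene comparison in KO mice over 16107 genes, the test called 68% of 100 genes changed by 0.5 and 91% of 100 changed by 1 on the log2 scale, and 12 unchanged genes. The changed genes were drawn at random from all tested genes, not from the collagens. Since the median within-group SD was 0.40 for collagens and 0.14 for all tested genes, these shares do not hold for the collagens. Sequences and their coordinates are from RefSeq on GRCm38.p6, and 3'UTR sites from GENCODE M21 on mm10.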

Additional observations from a re-analysis of the deposited data

Results flagged for a closer look

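In 18 of 172 sets of 5 mice (43 collagens in 4 groups) the highest or the lowest mouse stood so far from the others that its gap to the nearest was over 0.71 of the whole range of the group. By chance about 1 in 20 groups is picked in this way. No explanation of these values was tested.

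Among the fibrillar collagens these were Col1a1 in WT Non-Tg 4 at 14.0 CPM, Col3a1 in KO Tg-SwDI 3 at 7.54 CPM, Col5a1 in WT Tg-SwDI 3 at 12.1 CPM and Col24a1 in WT Tg-SwDI 3 at 1.27 CPM and in KO Tg-SwDI 1 at 0.947 CPM, all above their groups, and Col11a1 in WT Non-Tg 4 at 3.15 CPM, below it. Col12a1, a FACIT collagen, stood high in KO Non-Tg 1 at 14.6 CPM and in KO Tg-SwDI 3 at 11.9 CPM, and Col19a1 in WT Tg-SwDI 3 at 13.8 CPM and in KO Tg-SwDI 1 at 13.7 CPM. Col6a4 of type VI stood high in WT Tg-SwDI 6 at 3.14 CPM and in KO Tg-SwDI 1 at 2.56 CPM.

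The other 6 concern genes that ran beside Ttr. WT Tg-SwDI 7 stood low for Col4a4 at 0.957 CPM and for Col9a3 at 7.99 CPM. KO Tg-SwDI 2 stood low for Col9a3 at 9.29 CPM and for Col17a1 at 0.157 CPM. KO Non-Tg 2, with the highest Ttr of its group at 277 CPM, stood high for Col8a2 at 7.07 CPM and for Col9a3 at 10.4 CPM.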

How the results depend on the processing

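The number of collagens called between KO and WT was 0 under all alternatives run. With the transgene in WT mice it was 1 except when only the 10 mice compared were fitted (3, adding Col6a2 and Col11a2), and 1 without any single mouse. In KO mice the 10 became 6 with no filter on low counts (without Col4a3, Col4a4, Col8a1 and Col9a3), 2 with the choroid plexus score as a covariate, 4 without KO Non-Tg 1, KO Non-Tg 2 and KO Tg-SwDI 3 together (an alternative chosen after seeing the data), and 5 to 11 without single mice. On average over genotypes the 5 became 3 with the choroid plexus score (without Col15a1 and Col16a1), 11 with a fibroblast score and 8 by DESeq2, and 4 to 10 without single mice (10 without WT Non-Tg 7 or KO Tg-SwDI 2, 9 without WT Tg-SwDI 7). The 6 added with the fibroblast score were the genes that ran beside Ttr. The interaction stayed at 0, except for 1 (Col25a1) without KO Tg-SwDI 2, so its range without single mice was 0 to 1. KO Tg-SwDI 2 is the sole KO Tg-SwDI library below the gap in Ttr. Apart from the fewer mice or added term of the fits, the cause was not tested.

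With the choroid plexus score, Col4a3 (-0.11) and Col8a1 (-0.28) changed sign in KO mice. Of the alternative values of called collagens 416 kept direction and call, 84 kept direction alone and 2 changed sign. The correlation of Col5a1 and Col5a2 was 0.37 without 2 mice. Scaling by library size alone moved the share of higher calls over all genes from 74.7% to 47.0% between KO and WT Tg-SwDI mice, from 60.1% to 48.3% with the transgene in KO mice and from 66.1% to 56.1% on average. The lowest TMM factor, 0.901, was that of KO Tg-SwDI 8, and its part in these shifts was not tested.

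Mice of the same number in different groups did not deviate together (2 of 16 pairs with a correlation over 0.1, median -0.039), so the numbers were not taken as pairs. With the replicate block 5 collagens were called in KO mice, where Col4a3, Col4a4, Col8a1, Col9a3 and Col25a1 lost the call, 1 in WT mice and 5 on average. Alternatives confined to 10 mice and exactTest were not run for the average and the interaction. Depth limits the 9 collagens with under 10 counts in a library.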
